A study of Mus musculus with 12 samples.

Results

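The regions described here are stretches of the mouse genome that lay inside H3K79me2 peaks of both control libraries and held no base of an H3K79me2 peak in either library made after deletion of AF10. They were chosen from the 4 H3K79me2 peak lists alone, on the 19 autosomes. The control lists shared 63168 stretches, and 12512 of them (19.8%) met this rule. The other 50656 held at least 1 base of a Cre peak and are called retained below.

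The study compared mouse embryonic fibroblasts with and without AF10 (Mllt10) on day 4 of reprogramming to induced pluripotent stem cells. The control cells were AF10 fl/fl with the OSKM reprogramming factors and the rtTA activator, and had received an empty adenovirus (Ad5-CMV-Empty). The Cre cells came from the same conditional line and are labelled AF10 -/-, OSKM, rtTA, after an adenovirus with Cre recombinase (Ad5-CMV-Cre), which removes the floxed allele. Doxycycline at 2 µg/mL, which both groups received, was started 2 days after the virus. All cells grew on DR4 feeder fibroblasts, so chromatin of undeleted feeder cells may be present in every library. Each of H3K79me1 and H3K79me2 was measured by chromatin immunoprecipitation and sequencing in 2 control and 2 Cre libraries, and the 4 RNA polymerase II libraries of the series are not analysed here. The labels do not say that replicates came from separate cultures, so p-values measure the spread between these libraries, which may be technical.

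Methylation of lysine 79 of histone H3 is placed by a single enzyme, DOT1L, on the nucleosomes of transcribed genes, and it is densest in the first part of the gene body. AF10 is a cofactor of DOT1L that helps it to reach the higher methylation states. DOT1L activity is known as a barrier to the reprogramming of fibroblasts, which keep genes of the fibroblast program marked in this way. A peak list shows only where the signal passed a threshold, so a stretch that was not called need not have lost the mark. In such bulk chromatin, fewer cells with the mark and less mark per cell cannot be told apart.

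The lists differed in how much they called, and every count below depends on that. On the autosomes the H3K79me2 control lists covered 15.7 and 69.9 Mb (replicates 1 and 2), and the Cre lists covered 47.5 and 49.2 Mb. The H3K79me1 lists covered 118 and 53.4 Mb in control and 59.5 and 1.85 Mb after Cre, so Cre replicate 2 of that mark stood apart. Read counts are not part of the lists, so the depth is unknown and no counting interval can be given. The peaks carry no gene names and lie in mm9, while the annotation at hand is of another build, so no stretch is tied to a gene and no sequence is printed. Whether the AF10 locus was deleted cannot be read from these lists.

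The share of control stretches that was not called after Cre lay inside the range that other pairs of lists gave when 1 shared base counted as called. When each of the other 5 pairs of H3K79me2 lists was taken as the reference and looked for in the remaining 2 lists, between 3.70% and 24.5% of stretches were absent. The highest share, 24.5%, belonged to control replicate 2 with Cre replicate 2, and control replicate 2 with Cre replicate 1 gave 22.4%. The Cre pair looked for in the 2 controls gave 14.8%, which was 9007 of 60700 stretches. The lowest shares, 3.70% and 7.05%, belonged to the 2 pairs that joined control replicate 1 to a Cre list, for which the long list of control replicate 2 was among those searched. For these 2 pairs the lists searched covered 87.8 and 85.8 Mb. They covered 53.3 and 54.5 Mb for the pairs at 24.5% and 22.4%, 68.1 Mb for the control pair and 73.7 Mb for the Cre pair. The pairs thus differed in how much was searched, and the part of this in the shares was not tested. When a stretch also had to lie more than 1 kb from any peak of the lists searched, the control pair was above the other pairs, with 12.4% against 0.232% to 11.2%. Counted in bases, the control pair had 7.89% of its 12.0 Mb absent after Cre, against 1.31% to 9.54% in the other pairs. For H3K79me1 the 6 pairs ran from 6.44% to 42.4% of stretches, and the control pair was the highest of them. Pairs share lists and were not tested against each other.

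**Figure D1:**
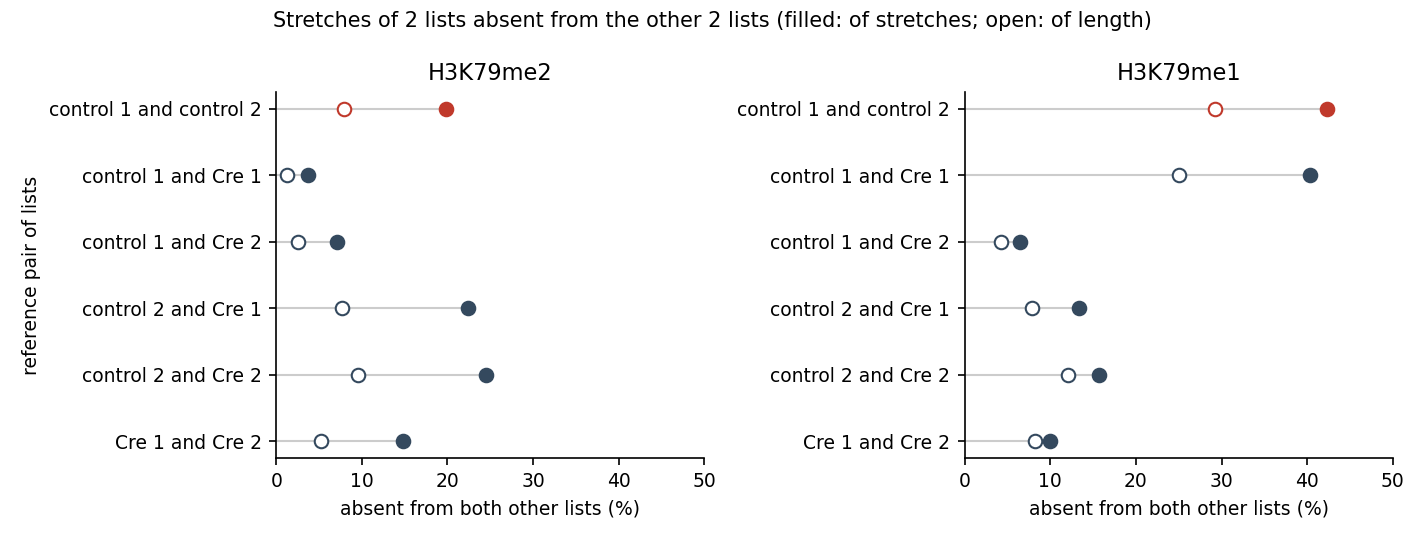
Share of the stretches common to a reference pair of lists (vertical axis) that held no base in the other 2 lists of the mark, as a percent of stretches (filled) or of their length (open), for H3K79me2 (left) and H3K79me1 (right). The control pair, in red, lay at 19.8% of stretches for H3K79me2, inside the 3.70% to 24.5% of the other 5 pairs. The lists searched differed in cover between pairs.

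The order of the pairs changed when each list was cut to the same number of peaks. With the 75276 autosomal peaks of highest −log10 p in each list, 18.5% of the control stretches were absent after Cre and 25.6% of the Cre stretches were absent from the controls. For H3K79me1, with 12047 peaks per list, the control pair was at 56.3%, below 71.2% for control replicate 1 with Cre replicate 1 and 65.4% for control replicate 2 with Cre replicate 2. The number of regions also rested on single lists. With control replicate 2 alone as the reference, 102747 of its 187210 peaks (54.9%) were not called after Cre. With control replicate 1 alone it was 32663 of 89615 (36.4%). With Cre replicate 1 alone as the list searched, 25286 stretches were not called, and with Cre replicate 2 alone 16778. Cre replicate 1 thus lacked 40.0% of the control stretches and Cre replicate 2 lacked 26.6%. Of the retained stretches, 33616 were in both Cre lists, 12774 in Cre replicate 2 only and 4266 in Cre replicate 1 only.

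The stretches not called after Cre were narrow. Their median width was 54 bp (quartiles 51 and 84 bp), against 130 bp (quartiles 61 and 264 bp) for retained stretches and 190 bp for those called in both Cre lists. Together the 12512 regions spanned 945 kb, while the retained ones spanned 11.0 Mb. The widest was 644 bp, 6 reached 500 bp, and none of the 1042 control stretches of 1000 bp or more was among them. A narrow stretch offers fewer bases that a Cre peak could touch, so width and membership are linked through the rule, and no test was made.

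The share that was not called went down step by step with width. It was 45.6% below 51 bp, 36.7% from 51 to 59 bp, 14.0% from 100 bp to under 200 bp, 3.76% from there to under 500 bp and 0.158% from there to under 1000 bp. Many of the narrow stretches were close to the shortest peak a list held. The shortest peak was 51 bp in control replicate 1 and 116 bp in control replicate 2, and 60.5% of the regions were under 60 bp wide, against 23.9% of retained stretches. Stretches under 51 bp were thus only part of a peak in both control lists. The stretch was the whole peak of neither control in 35.0% of the regions and 22.8% of the retained stretches. The other pairs of H3K79me2 lists also gave narrower stretches among those absent, with retained stretches 1.99 to 2.79 times as wide by the median. For the control pair this ratio was 2.41.

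**Figure D2:**
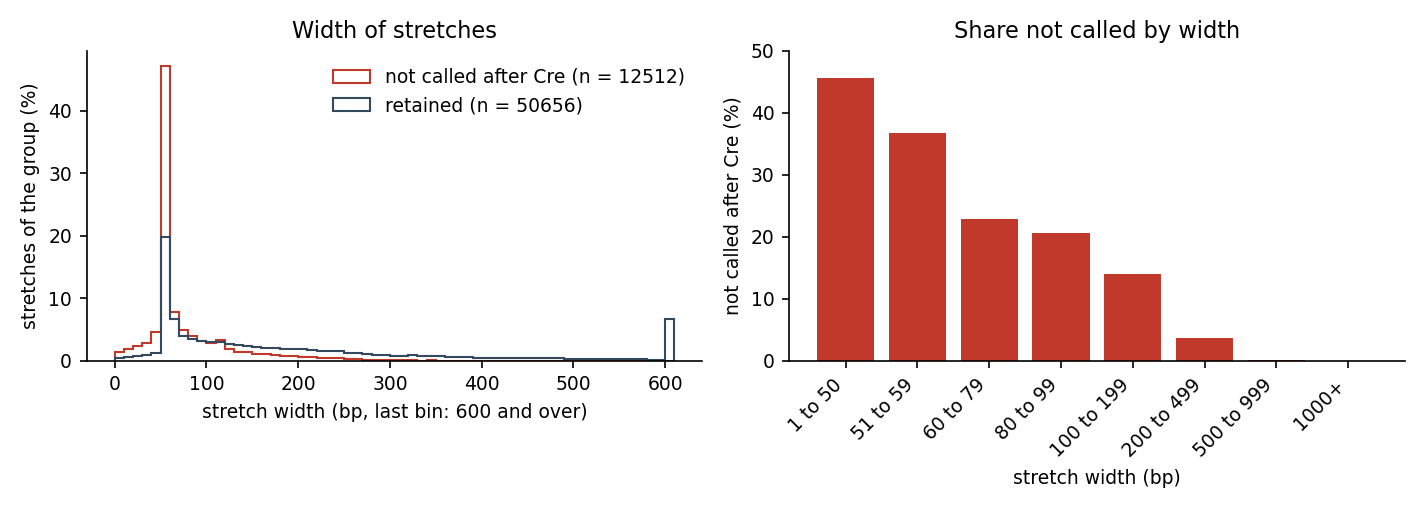
Left, width of the stretches common to both controls in bins of 10 bp, as a percent of the 12512 not called after Cre (red) and of the 50656 retained (dark). Right, percent of stretches not called after Cre in 8 classes of width, from 45.6% under 51 bp to 0% at 1000 bp and over.

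Stretches held by the shortest peaks, or by peaks at a list's most frequent −log10 p, were often among the regions. In control replicate 2 the most frequent −log10 p, 1.56, was shared by 37.3% of peaks. Where the control replicate 2 peak had exactly that value, 53.3% of 6542 stretches were not called after Cre, and 2215 of these stretches were also in a peak of the shortest width. In control replicate 1 the most frequent value, 2.23, went with 24.3% not called, nearer to the 19.8% over all stretches. Where both control peaks were at their shortest width, 77.2% of 989 stretches were not called. Where neither was, the share was 14.7%, and such stretches still made up 61.2% of the regions, 7652 in all.

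By the median, the authors' peak values were lower for the regions in control replicate 2, while in control replicate 1 the order depended on width. In control replicate 2, the peaks that held the regions had a median fold enrichment of 1.92 (quartiles 1.77 and 2.11), and those that held retained stretches 2.12 (1.94 and 2.34). In control replicate 1 the medians were 2.45 and 2.35, so the peaks of the absent stretches were slightly the higher. Their median percentile of −log10 p in that list was 58.2, against 43.0 for retained stretches. This order held only under 60 bp, with 71.2 against 61.2. From 60 bp to under 100 bp it was reversed, with 57.3 against 62.4, and from there to under 200 bp both were 43.0. At 200 bp and over it was again reversed, with 30.5 against 43.0. Above the 80th percentile of that list, where the median width was 58 bp, 28.5% of 13501 stretches were not called. In its lower classes the share was 12.2% to 21.5%. Within stretches under 60 bp, the control replicate 1 medians were 2.63 and 2.50, and the control replicate 2 medians 1.93 and 2.05. At 200 bp and over, 8.05% of stretches in the lower part of the control replicate 2 list (up to the 50th percentile of −log10 p) were not called, against 1.92% in the upper part. These values come from the peak caller and serve here to rank peaks within a list.

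The regions lay farther from retained stretches than retained stretches lay from each other. Distances use the lists that chose the regions, so distance and membership are linked through the rule, and no test was made. In control replicate 2 the peaks that held retained stretches had a median width of 928 bp, against 182 bp for the regions. Several retained stretches can lie in 1 such peak. The median distance from a region to the nearest retained stretch was 20.6 kb (quartiles 2.83 and 82.2 kb), against 0.681 kb (0.322 and 3.16 kb) from a retained stretch to the nearest other one. Peaks of the Cre lists, shared with the controls or not, were nearer, at a median of 3.75 kb, and 53.1% of the regions had one within 5 kb. Within 1 kb of a retained stretch lay 13.5% of the regions and 59.0% of the retained stretches. Beyond 50 kb lay 4326 regions, or 34.6%, against 9.26% of retained stretches. Read the other way, 3.90% of control stretches within 500 bp of a retained stretch were not called, 18.7% of those at 1 to 5 kb and 48.0% of those beyond 50 kb.

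The distance varied widely between pairs of lists. In the other 5 pairs the median ran from 1.05 kb for control replicate 2 with Cre replicate 1 to 19.5 kb for control replicate 1 with Cre replicate 2, and the control pair, at 20.6 kb, was the highest of the 6 H3K79me2 pairs. With equal peak numbers it was 37.7 kb, below the 39.4 kb of control replicate 1 with Cre replicate 2. The 3 pairs that were looked for in Cre replicate 1, the list with the fewest peaks, gave 3.10 to 20.6 kb. The 3 pairs that included Cre replicate 1 gave 1.05 to 1.65 kb. With Cre replicate 2 as the only list searched, the median distance of the control pair fell to 8.68 kb, and with Cre replicate 1 as the only one it was 52.9 kb.

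**Figure D3:**
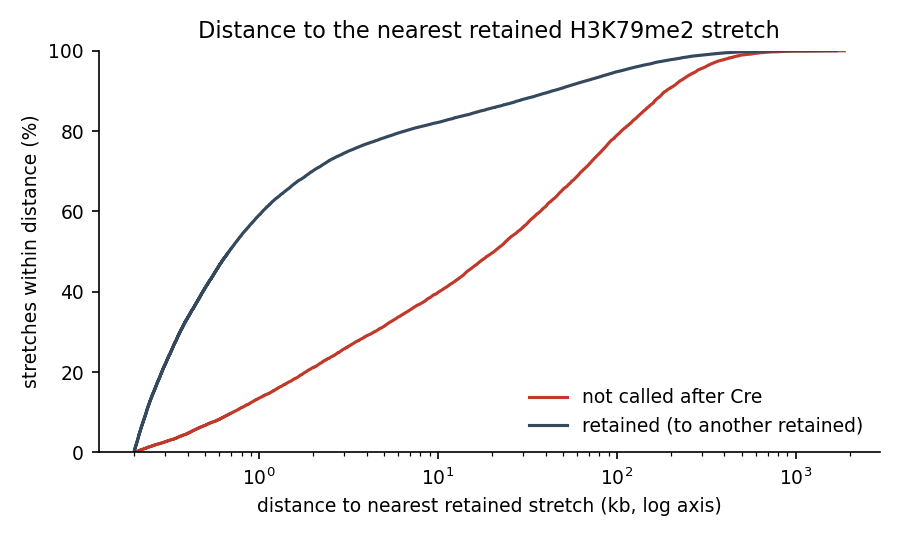
Cumulative percent of stretches within a given distance (kb, log axis) of the nearest retained stretch, for regions not called after Cre (red) and for retained stretches measured to another retained stretch (dark). The median was 20.6 kb for the first and 0.681 kb for the second.

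The regions were mostly solitary, a description that uses the same lists as the rule. When stretches within 5 kb of each other were joined into runs, 63.7% of the regions stood alone, against 19.4% of the retained stretches. Of the 17823 runs that held a single stretch, 44.7% were regions not called after Cre. The share fell to 21.0% in runs of 2 to 4 stretches and to 4.26% in runs of 20 or more. Only 252 runs held 2 or more stretches that were all uncalled, and the longest of them held 4. In runs of 3 or more stretches, 38.5% of the uncalled stretches were the first or last of the run, against 20.7% of the retained ones.

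The surroundings, read from the same lists as the rule, differed in the same way. In the 5 kb on each side of a region, H3K79me2 peaks of the control libraries took up 2.87% (replicate 1) and 14.2% (replicate 2) of bases. Those of the Cre libraries took up 9.66% and 8.96%. Around retained stretches the same shares were 13.6%, 44.5%, 40.6% and 36.7%. Such a stretch lies at least in part in a Cre peak, which can reach into its flanks. No Cre replicate 1 peak lay in the flanks of 7417 regions, and no Cre replicate 2 peak in those of 6037. Among the 50656 retained stretches the counts were 7178 and 134. A peak of Cre replicate 1 or 2 thus lay in the flanks of 40.7% or 51.8% of the regions. In retained stretches it was 85.8% or 99.7%. A Cre peak lay within 200 bp of 2176 regions (17.4%) and within 1 kb of 4662 (37.3%).

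Few values stood within 10 bp of the edge of the rule, while 2176 regions (17.4%) had a Cre peak within 200 bp. A Cre peak lay within 10 bp of 243 regions, 1.94% of them, and 542 retained stretches (1.07%) had at most 10 bp in either Cre list. The regions nearest to a Cre peak touched it without sharing a base, at chr5:125642226-125642514, chr12:113029258-113029546 and chr8:73073517-73073758. Just outside the rule, the stretches at chr8:108710233-108710387 and chr15:97973795-97973933 shared 1 bp with Cre replicate 1 and none with Cre replicate 2, and the one at chr10:42242436-42242563 shared 1 bp with Cre replicate 2 only. All positions are in mm9 and count from base 1.

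H3K79me1, which the rule did not use, covered less of these regions than of the retained stretches in each of the 4 H3K79me1 libraries. Of the regions' bases, 27.0% lay inside H3K79me1 peaks in control replicate 1 and 29.4% in control replicate 2. In the Cre lists it was 11.8% (replicate 1) and 2.03% (replicate 2). In the retained stretches the cover was 55.4% and 44.1% in control and 63.1% and 6.77% after Cre. Both Cre values of the regions lay below both controls, while in the retained stretches Cre replicate 1 was the highest of the 4. For scale, H3K79me1 peaks covered 4.76% and 2.16% of the autosomes in the control lists and 2.41% and 0.0748% in the Cre lists. The 2 groups of stretches differed in width. At 200 bp and over, the controls covered 39.8% and 41.6% of the regions' bases, against 54.6% and 42.8% in retained stretches, so control replicate 2 differed little. The Cre lists there covered 18.7% and 4.74%, against 68.2% and 7.59%.

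The mean H3K79me1 cover of the regions was 28.2 ± 1.65% over the controls and 6.89 ± 6.88% over the Cre libraries (SD, n = 2), a difference of -21.3 percentage points. Over the 6 ways to arrange the 4 libraries, an exact permutation test (two-sided) gave p = 0.33, the smallest value it allows, and 0.5 after Benjamini-Hochberg adjustment over 3 tests. In the 7850 regions more than 1 kb from a Cre peak the difference was -9.45 percentage points, with the same p. In retained stretches the difference was -14.8 percentage points (exact permutation p = 1), with overlapping groups. Dividing the cover of the regions by that of the retained stretches sets it against what the same library called where H3K79me2 was kept. This ratio was 0.488 and 0.666 in control and 0.186 and 0.300 after Cre. On the log2 scale the mean difference, Cre minus control, was -1.27 (exact permutation p = 0.33, adjusted 0.5, n = 2 per group).

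A fall of this size in relative H3K79me1 cover was not particular to regions absent after Cre. The same log2 difference was computed for the stretches that each of the other 5 pairs of H3K79me2 lists left uncalled, and it ran from -1.57 to -1.21. For stretches of both Cre lists that the controls lacked, the reverse of the rule, it was -1.22. Within replicate 1 of H3K79me1 the control pair had the largest fall, -1.39, against -1.13 to -0.42 for the other pairs. Within replicate 2 it had the smallest, -1.15, against -2.53 to -1.29. In cover of the uncalled stretches, both H3K79me1 Cre lists were below both controls in 3 of the 6 pairs, the control pair among them. The names inside the lists give replicate 1 of both marks the same letter, A, so those libraries may share chromatin or input, and their part in the result was not tested.

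**Figure D4:**
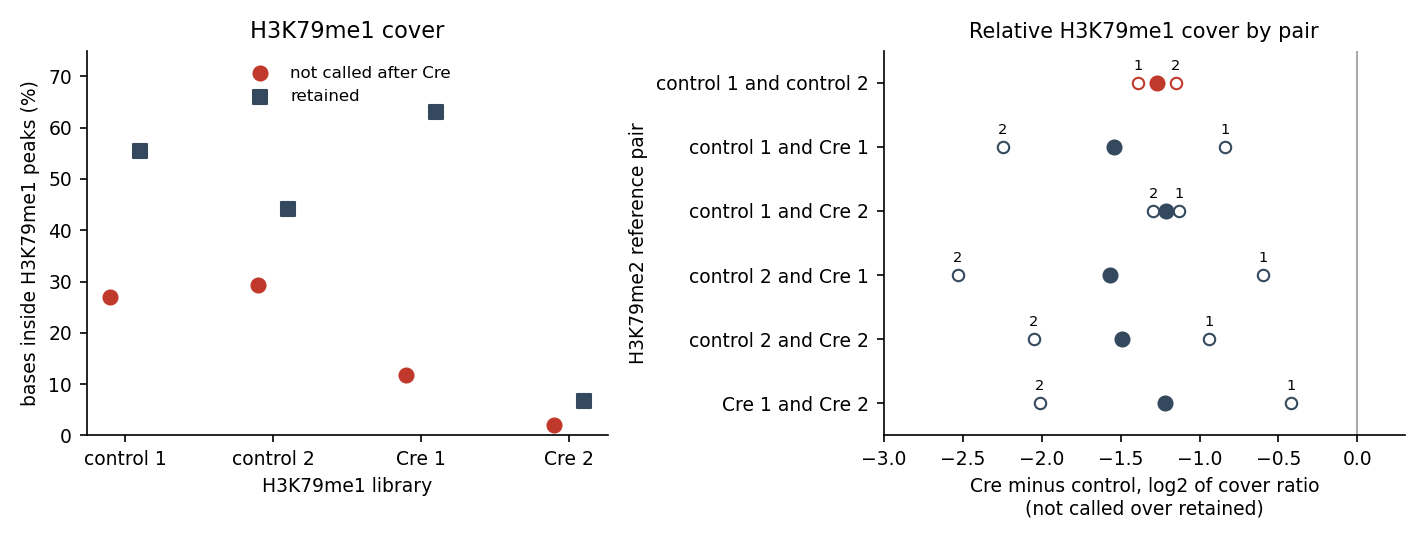
Left, percent of bases inside H3K79me1 peaks in each of the 4 H3K79me1 libraries, for regions not called for H3K79me2 after Cre (red) and retained stretches (dark squares). Right, Cre minus control in the log2 ratio of H3K79me1 cover, uncalled over retained, for each reference pair of H3K79me2 lists (filled, mean; open, replicates 1 and 2); the control pair, in red, at -1.27 lay inside the -1.57 to -1.21 of the others.

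Counted as whole stretches, 7537 of the 12512 regions (60.2%) held no base of any H3K79me1 peak, against 17.6% of the retained stretches. A base in both H3K79me1 controls was found in 2023 regions (16.2%) and in 46.1% of the retained. Of the regions, 1201 (9.60%) held H3K79me1 in both controls and in neither H3K79me1 Cre list, while over all 63168 stretches the share was 8.88%, so this count was near the background. On the autosomes, 94.5% of stretches common to the H3K79me1 controls held no base of Cre replicate 2, and 43.3% none of Cre replicate 1. Absence from both H3K79me1 Cre lists thus rests largely on Cre replicate 1. Of the 2023 regions with H3K79me1 in both controls, 59.4% had no H3K79me1 base called in either Cre list. Over all 25352 control stretches with H3K79me1 in both controls it was 22.1%. The order was the same at each width, with 62.5% against 31.8% in retained stretches under 60 bp and 47.7% against 8.87% at 200 bp and over. Each of the other pairs also gave a higher share in its uncalled than in its retained stretches, by 2.04 to 3.25 times, and the control pair gave 3.14 times.

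H3K79me1 in the regions depended on how far they lay from the H3K79me2 that was kept. In the 3925 regions within 5 kb of a retained stretch, the control H3K79me1 lists held 48.9% and 46.1% of bases, and the Cre lists 23.0% and 2.68%. In the 4326 regions beyond 50 kb, the values were 3.96% and 7.32% in control and 1.73% and 1.18% after Cre. The near regions thus had H3K79me1 cover close to that of retained stretches in the controls, and 89.5% of the far ones were in no H3K79me1 list. Retained stretches that lay more than 50 kb from any other had 19.4% and 23.0% in the controls, and 75.3% of them were in no H3K79me1 list. The near regions were wider, with a median of 66 bp against 53 bp, and held 306 of the 515 regions of 200 bp or more. In control replicate 1 the far regions had the higher peaks, with a median fold enrichment of 2.76 against 2.24 for the near ones. Both orders were also seen in retained stretches, so they were not particular to the regions. Retained stretches beyond 50 kb from another had a median width of 58 bp and a fold of 3.51. Those within 5 kb of another had 165 bp and 2.31.

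The regions were spread over all 19 autosomes. The share of control stretches not called after Cre ran from 16.5% on chromosome 11 to 23.3% on chromosome 1, with a median of 19.3%. Chromosomes 14, 6 and 16 followed chromosome 1 with 22.8%, 22.7% and 22.1%, and chromosomes 15 and 17 were next to the lowest with 17.7% and 17.9%. The number per Mb varied less than that of all control stretches, from 4.36 on chromosome 13 to 6.54 on chromosome 11, while control stretches ran from 20.2 to 39.6 per Mb. The share was therefore lower on chromosomes with more control stretches. Across the 19 autosomes, which share the same libraries, Pearson's r was -0.81 and Spearman's rho -0.79, given as a description.

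The shares also differed between autosomes within classes of width. Among stretches under 100 bp the share ran from 28.6% on chromosome 11 to 36.4% on chromosome 1, and among wider ones from 5.59% on chromosome 15 to 9.57% on chromosome 9. The median width of the regions was 53 to 57 bp on every autosome. The median distance to a retained stretch ran from 11.8 kb on chromosome 11 to 30.9 kb on chromosome 12. Other pairs of H3K79me2 lists also varied between autosomes, with a span from the lowest to the highest share of 1.55 to 5.60 percentage points, and 6.76 for the control pair. On the X chromosome, outside the rule, 477 of 1241 control stretches (38.4%) were not called after Cre. The other pairs were not counted there, so this share has no reference. The list of H3K79me1 control replicate 1 held 0 peaks on the X chromosome.

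**Figure D5:**
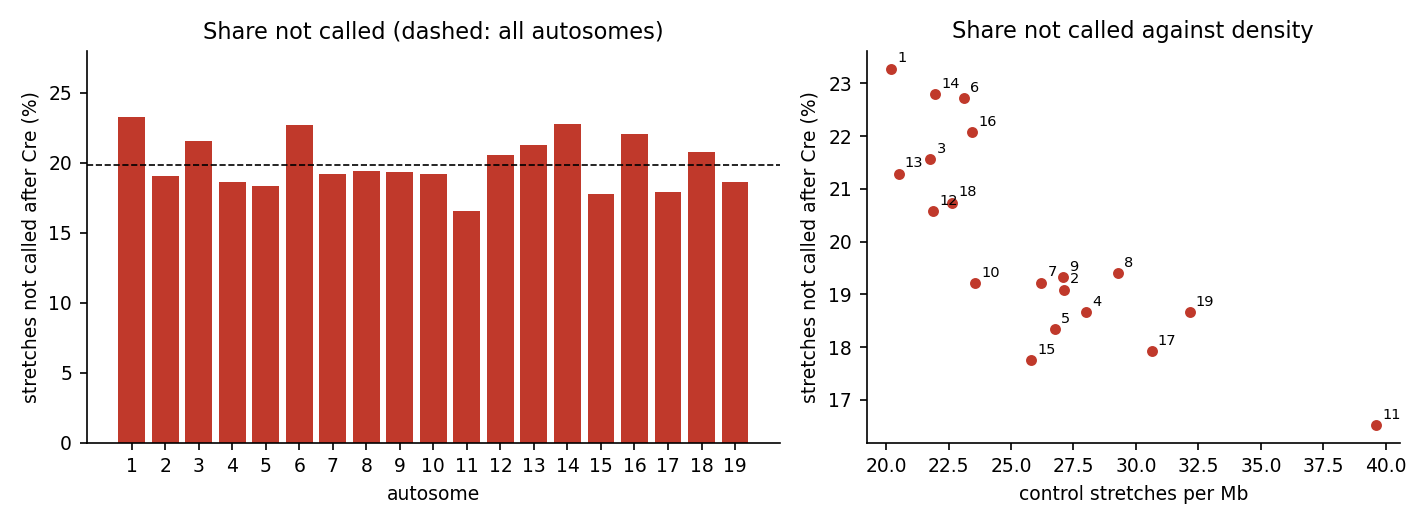
Left, percent of control stretches not called after Cre on each autosome, with 19.8% over all of them as a dashed line. Right, the same share against the number of control stretches per Mb (chromosome numbers beside the points, vertical axis not from 0), from chromosome 1 at 23.3% to chromosome 11 at 16.5%.

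Of the 5 widest regions, 4 lay within 1 kb of an H3K79me2 peak of a Cre library. The widest, 644 bp at chr4:120482817-120483460, ended 6 bp from a Cre peak. Its control peaks had fold enrichments of 2.38 and 1.94 in replicates 1 and 2, and Cre peaks covered 40.4% and 25.2% of the flanks of 5 kb. H3K79me1 covered 100% and 47.5% of it in the controls and 0% in both Cre lists. The region of 561 bp at chr7:28290266-28290826 lay 188 bp from a Cre peak, with H3K79me1 over 62.4% and 63.3% in the controls and over 45.1% and 0% after Cre. The region of 544 bp at chr11:101601364-101601907 was 2916 bp from a Cre peak and held H3K79me1 in control replicate 2 (100%) and Cre replicate 2 (83.8%) only. The next, of 509 bp at chr12:45372565-45373073 and of 507 bp at chr11:30123327-30123833, held H3K79me1 in at least 3 of the 4 lists, and the last had most of it in Cre replicate 1, over 73.0%. H3K79me1 after Cre was thus absent from the widest region alone among the 5.

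The 5 regions of at least 200 bp that lay farthest from a retained stretch held no H3K79me1 in any list. The first, 340 bp at chr12:68160536-68160875, was 708 kb from the nearest retained stretch and 49.7 kb from the nearest Cre peak, with control fold enrichments of 2.39 and 1.54. The others lay 346 to 420 kb from a retained stretch, at chr14:83656396-83656622, chr17:51935017-51935233, chr19:40939976-40940187 and chr5:110121974-110122206. Cre peaks covered 0% of the 5 kb on each side of all 5, and control replicate 2 covered at most 1.31%.

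Regions that ranked high in both control lists were found near to and far from Cre peaks. By the lower of its 2 ranks by −log10 p, the first was 203 bp at chr3:56379457-56379659, with −log10 p of 4.09 and 2.71, 127 kb from a Cre peak and with H3K79me1 in Cre replicate 2 only (63.5%). The next, 207 bp at chr7:109106057-109106263, lay 340 bp from a Cre peak and was wholly inside H3K79me1 peaks in both controls, with 0% and 67.6% after Cre. The region at chr15:76320062-76320277 lay 26 bp from a Cre peak, was wholly inside H3K79me1 peaks in both controls, and held none after Cre. The regions at chr11:18800335-18800598 and chr13:72897144-72897365 lay 5159 and 38866 bp from a Cre peak.

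In some regions both marks were called in both controls and neither after Cre. Those with the most H3K79me1 were 449 bp at chr14:62253459-62253907, wholly covered in both controls, 379 bp at chr7:123573189-123573567, covered to 86.0% and 89.2%, and 326 bp at chr3:22035412-22035737, again wholly covered. Cre H3K79me2 peaks lay 777, 319 and 1214 bp away. Elsewhere H3K79me1 was kept where H3K79me2 was not called. A base in all 4 H3K79me1 lists was found in 34 regions (0.272%), against 6.46% of retained stretches, a count that the 1.85 Mb of Cre replicate 2 limits. A base in both controls and in Cre replicate 1 was found in 757 regions (6.05%), against 36.3% of retained stretches. The largest such overlap was at chr8:127382425-127382749, where H3K79me1 covered 85.2% and 100% in control and 100% and 60.3% after Cre, and the 102 bp at chr19:8948107-8948208 were wholly covered in all 4. The third, at chr13:95583069-95583364, had 100% and 42.2% in control and 84.1% and 33.4% after Cre.

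Most windows of 50 kb that held a region held a single one. Of the 18362 windows with a control stretch, 9750 held a region, 7753 of them just 1 and 56 of them 5 or more. An even spread was not computed as a reference, so these counts do not show whether the regions were grouped. In 5316 of the 9750 windows no control stretch was retained, and they held 5952 regions, or 47.6%. The most in a window was 8, reached in 3 of them, which began at chr11:32350001, chr3:58200001 and chr2:115850001 and held 24, 21 and 18 control stretches. Each of the 3 also held retained stretches, so by definition H3K79me2 was called there after Cre. On chromosome 11 it covered 9.85% and 43.6% of the window in control and 28.3% and 23.2% after Cre. On chromosome 3 the values were 14.3% and 38.4% against 19.3% and 20.3%, and on chromosome 2 they were 6.89% and 24.7% against 10.2% and 11.4%. In all 3 windows both Cre values lay between the 2 controls, as did the cover of the Cre lists over all autosomes.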

How the data were processed

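ChIP-seq of H3K79me1 and of H3K79me2 was done in 8 libraries, 2 per mark and arm. The authors deposited 1 list of broad peaks per library in mm9, called against an input per the names in the lists, at a setting of 0.001 for H3K79me1 and 0.0001 for H3K79me2. MACS2, bedtools, Bowtie2, HOMER, SAMtools 1.2 and deepTools are named in the submitters' processing notes without a role, as are the builds hg19 and mm9. The labels record a human spike-in, but no scaling by it is given in the sources used here. Each peak in the deposited lists carries a score, a fold enrichment (a ratio), a −log10 p-value and a −log10 q-value, all by the authors. Libraries of RNA polymerase II (4) were not analysed here. Read depth is unknown, so no counting error is given.

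Peaks of each list were intersected base by base on the 19 autosomes (NumPy 2.4.6 and pandas 2.3.3 in Python 3.11.15; figures with Matplotlib 3.10.9, correlations with SciPy 1.17.1). A stretch is a run of bases inside peaks of both libraries of a pair, and 1 shared base with a list counts as called. Fold and −log10 p of a stretch are those of the peak that holds it. Chromosome length was taken as the end of the last peak. The interval code was tested base by base on 200 made-up sets, with 0 mismatches. H3K79me1 cover was compared with exact two-sided permutation tests over libraries.

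Regions were named by rule: the 5 widest, the 5 farthest from a retained stretch and the 5 highest in both controls (the last 2 kinds at 200 bp or more), the 3 windows of 50 kb with the most regions, the 3 with most H3K79me1 in both controls and none after Cre, the 3 with most in all 4 lists, and 3 on each side of the rule's edge. The regions, measures and naming rule were chosen with earlier results of these data known. Alternatives were minimum widths, a distance of 1 kb to Cre peaks, merging of control peaks, a −log10 p minimum of 2, equal peak numbers, the X chromosome, each library left out, and a replicate block.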

Additional observations from a re-analysis of the deposited data

How the results depend on the processing

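Of 94 alternative values with no test, 58 stayed within a margin and 36 moved further. The margin was 1.5 times for a count, and otherwise the SD of 2 values that each used a single list. It was wide for some measures, at 31.2 kb for the median distance of 20.6 kb and 7.78 percentage points for the autosome range of 6.76. For the H3K79me1 pairs it was 36.2 percentage points. Staying within such margins says little about stability. The other 34 alternative values, of the tested H3K79me1 differences, kept their direction. None could pass the threshold of 0.05, since these exact permutation tests allow no p below 0.33. Requiring a width of 100 or 200 bp left 2447 or 515 regions, 7.60% or 2.81% of stretches, with retained stretches 1.65 or 1.43 times as wide and a control H3K79me1 cover 0.762 or 0.851 times that of retained stretches; at 200 bp the regions held 1.63% of bases. Excluding regions within 1 kb of a Cre peak left 7850, with an H3K79me1 ratio of 0.240, and put the control pair, at 12.4%, above the highest other H3K79me2 pair, at 11.2%. The H3K79me1 difference was then -9.45 percentage points, and the relative one -1.25 with an exact permutation p of 0.667. Control peaks with −log10 p of at least 2 gave 1430 regions, 9.33% of stretches and 2.36% of bases, at a median of 107 kb. Equal peak numbers gave 7716 regions, and the lowest H3K79me1 pair became 48.4%. Merging control peaks within 1 kb gave 3.74% of bases and a width ratio of 3.22. Including the X chromosome widened the range over chromosomes to 21.9 percentage points.

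Leaving out 1 library at a time gave 16778 to 102747 regions, 26.6% to 54.9% of stretches and 12.0% to 28.1% of bases. It gave width ratios of 2.31 to 2.98, median distances of 8.68 to 52.9 kb, H3K79me1 ratios of 0.393 to 0.787 and ranges over autosomes of 4.75 to 15.8 percentage points. The counts without control replicate 1, control replicate 2 and Cre replicate 2 (102747, 32663 and 25286) were over 1.5 times the 12512 reported. Leaving out a library removes a condition of the rule, which by itself raises the count. The cause of the other changes was not tested. The difference in H3K79me1 cover ran from -26.2 to -14.4 percentage points and the relative one from -1.66 to -0.93 on the log2 scale, below 0 each time.

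With a replicate block, pairing libraries by number, the differences were -21.3 percentage points and -1.27, each with an exact permutation p of 0.5, the smallest 2 pairs allow. The labels do not say that the numbers pair libraries.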
